A study of Mus musculus with 6 samples.

Results

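Integrins are the receptors by which a cell holds the matrix, each built from an alpha and a beta subunit. The 10 genes described here encode the subunits that mesenchymal cells use to bind collagen, fibronectin or the latent form of TGF-beta: the 6 alpha subunits Itga1, Itga4, Itga5, Itga8, Itga11 and Itgav and the 4 beta subunits Itgb1, Itgb3, Itgb5 and Itgb8. They were picked by gene symbol, not by any measured value, from the 56691 genes of the deposited table, though earlier results of these data were known. All 10 passed the filter on low counts, which kept 15987 genes. They were measured by RNA sequencing in 6 libraries of primary hepatic stellate cells from wild-type mouse liver. The K-80003 group (2 libraries) was given the compound K-80003 as well as TGF-beta, the TGF-beta group (2 libraries) received TGF-beta alone, and the Control group (2 libraries) is labelled as control. No library had K-80003 without TGF-beta, and doses, treatment times and the number of mice are not given in the sources used here. No source says whether the 2 libraries of a group came from separate cultures, so p-values measure the spread between these libraries, which may be technical.

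Stellate cells lie beside the liver sinusoids, store vitamin A when quiescent and become matrix-producing, contractile cells when activated by TGF-beta. Itgb1 is the common partner of most of the alpha subunits listed. With Itga1 or Itga11 it forms collagen receptors, and with Itga5 the main fibronectin receptor. With Itga8 it binds nephronectin and fibronectin, and with Itga4 it binds VCAM1 and fibronectin. Itgav pairs with Itgb1, Itgb3, Itgb5 or Itgb8. These Itgav receptors recognise the RGD motif. Several of them bind the latency-associated peptide that holds TGF-beta inactive in the matrix, and some can release the active factor.

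The 250 bases before the annotated starts of 4 called members are shown. Itgb5 and Itga5 were called higher with TGF-beta alone against Control. Itga1 and Itgb8 were called lower in the K-80003 group against each other group, Itgb8 on 2 counts in each K-80003 library. Itgb5 was also called lower in the K-80003 group against TGF-beta alone, so the pairs do not stand for opposite changes. RefSeq promoters (build GRCm38.p6) were found for 9 of the 10 members; Itgb3 had none in the table used. The sequences run 5′ to 3′ on each gene's own strand and end at the base before the start. Capitals mark GGGCGG or its reverse CCGCCC in the first pair and CAGAC or its reverse GTCTG in the second.
Itgb5: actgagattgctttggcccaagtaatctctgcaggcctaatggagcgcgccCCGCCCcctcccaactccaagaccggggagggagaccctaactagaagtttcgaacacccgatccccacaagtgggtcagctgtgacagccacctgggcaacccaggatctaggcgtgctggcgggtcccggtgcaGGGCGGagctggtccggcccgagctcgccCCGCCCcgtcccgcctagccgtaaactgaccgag
Itga5: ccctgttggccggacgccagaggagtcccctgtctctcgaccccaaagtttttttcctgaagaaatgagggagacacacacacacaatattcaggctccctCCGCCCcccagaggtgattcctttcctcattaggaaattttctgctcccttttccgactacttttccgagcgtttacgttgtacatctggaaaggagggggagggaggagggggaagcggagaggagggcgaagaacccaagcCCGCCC
Itga1: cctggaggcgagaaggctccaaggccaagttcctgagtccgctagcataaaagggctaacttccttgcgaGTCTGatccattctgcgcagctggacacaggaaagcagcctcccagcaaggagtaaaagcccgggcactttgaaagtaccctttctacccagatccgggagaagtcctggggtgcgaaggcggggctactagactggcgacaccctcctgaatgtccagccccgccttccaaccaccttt
Itgb8: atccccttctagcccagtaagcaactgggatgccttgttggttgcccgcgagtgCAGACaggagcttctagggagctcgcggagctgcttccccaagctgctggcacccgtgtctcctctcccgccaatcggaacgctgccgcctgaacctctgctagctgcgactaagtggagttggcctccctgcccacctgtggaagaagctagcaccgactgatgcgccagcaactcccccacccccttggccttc
The windows are chr16:33829415-33829664 on the plus strand for Itgb5, chr15:103366792-103367041 on the minus strand for Itga5, chr13:115101965-115102214 on the minus strand for Itga1 and chr12:119238277-119238526 on the minus strand for Itgb8. Itgb5 held 3 copies of GGGCGG, the letters of a GC box, counted on both strands, and Itga5 held 2. GGGCGG was found in 4 of the 9 member promoters and in 32.7% of 32851 promoters of the same length. Itga4 and Itgb1, which were called in no comparison, also held it. CAGAC, the letters of a SMAD binding element, was found in 4 of the 9 member promoters and in 42.2% of all promoters. Itga1 held 1 copy in reverse, 180 bases before the start, Itgb8 held 1 copy 196 bases before it, and Itgb5 and Itga5 held 0. Copies did not follow the calls: Itga8, also called lower, held 0, while Itgb1 with 3 copies and Itga4 with 1 copy were called in no comparison. TGANTCA, the letters of an AP-1 site, and AGGTCA, the letters of a nuclear receptor half-site, were in 0 of the 9 windows, against 6.75% and 14% of all promoters. GGAATG, the letters of a TEAD site, was in the window of 1 member, Itgb1, against 12.6% of all promoters. No motif searched contains another, both strands were searched, and a match says nothing of binding.

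The libraries held between 15646093 and 19004144 counts each, and a floor of 3 counts came to between 0.157 and 0.188 CPM, the count scaled to a common library total. The 2 libraries of every group differed from each other along gene length. The tested genes were put into 5 bins of about equal size by exonic length, and the median log2 CPM of replicate 1 minus replicate 2 was taken in each. It was -0.20 in the shortest bin of the K-80003 group and 0.26 in its longest. It was 0.29 and -0.35 in the TGF-beta group and -0.36 and 0.36 in Control. The members include some of the longest genes by exonic length. Itga1, with 18599 exonic bases, lay at length percentile 99.1, Itga4 at 97.1, Itgb8 at 93.7 and Itgav at 93.1, whereas Itgb1 (51.5) and Itgb5 (44.3) lay near the middle. Itga1 showed replicate differences of 0.41 in the K-80003 group, -0.62 in the TGF-beta group and 0.78 in Control, and those of Itgb5 were -0.11, 0.05 and -0.10. Values from a refit that removes a length trend per library, chosen after seeing the data, are given beside Itga4 and Itgb3 and in the closing section.

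**Figure D1:**
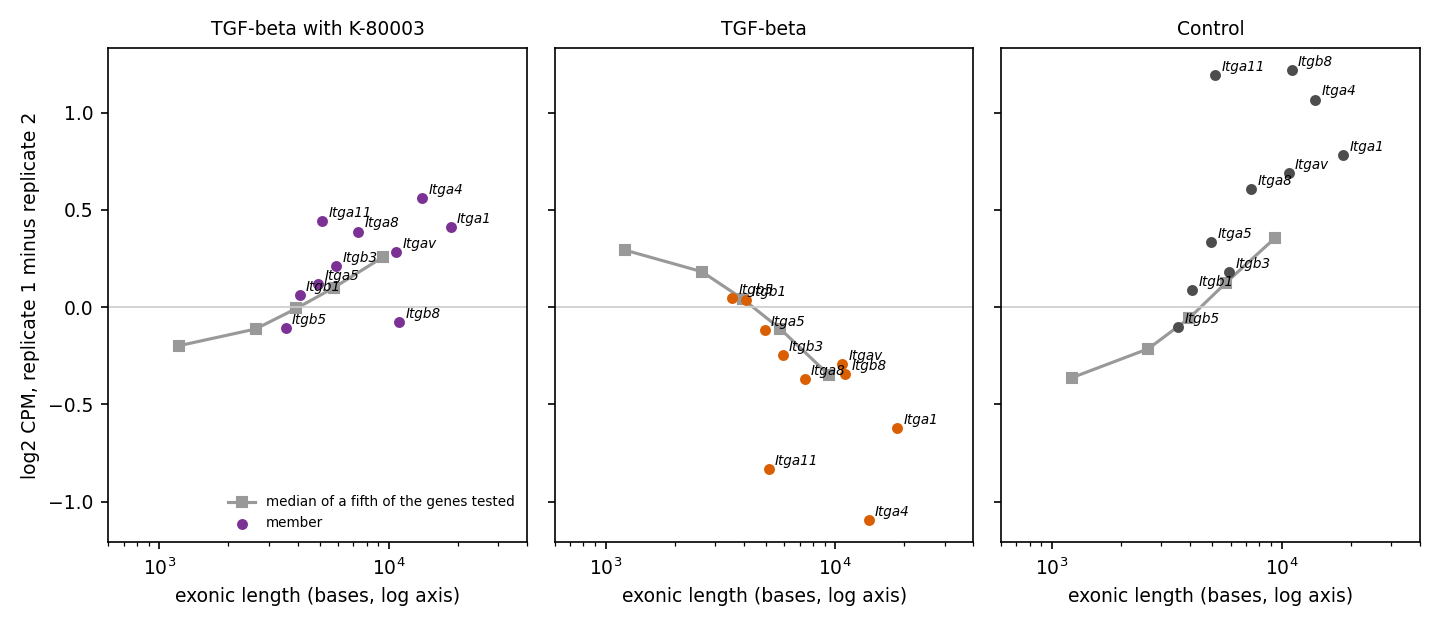
Difference in log2 CPM between replicate 1 and replicate 2 (vertical) against exonic length in bases (log axis) for the K-80003 group, the TGF-beta group and Control. Grey squares are medians over 5 length bins of the genes tested, placed at each bin's median length, and coloured points are the 10 members; long members such as Itga1 and Itga4 sit above 0 in the K-80003 group and Control and below 0 in the TGF-beta group, while Itgb5 and Itgb1 stay near 0 in every group.

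For all 7 stellate cell markers used (Lrat, Des, Pdgfrb, Reln, Hgf, Colec11 and Hand2), reads were present in every library, with summed levels of 2417 to 3572 CPM in the K-80003 group, 3217 to 5181 CPM in the TGF-beta group and 4065 to 6568 CPM in Control. Reln alone held 2749 and 1688 CPM of these sums in the K-80003 group, 1292 and 2774 CPM in the TGF-beta group and 3929 and 1869.8 CPM in Control. Without Reln, a choice made after seeing the data, the other 6 summed to 822 and 729 CPM in the K-80003 group, 1924 and 2407 CPM in the TGF-beta group and 2638 and 2195 CPM in Control, and the K-80003 libraries lay below the other 4. Of all 7, 0 were called higher and 4 lower in the K-80003 group against TGF-beta alone, and 0 higher and 5 lower against Control. The 8 endothelial markers summed to 608 to 695 CPM in the K-80003 group, 325 to 391 CPM in the TGF-beta group and 385 to 475 CPM in Control, none of them at 0. The 8 lymphocyte and neutrophil markers stayed under 1 CPM in sum in every library, with Ly6g at 0 in all 6, and the 5 platelet markers under 8.5 CPM, with Treml1 at 0 in all 6. The 8 hepatocyte markers summed to 45.9 to 68.2 CPM in the K-80003 group, 43.8 to 108 CPM in the TGF-beta group and 79.4 to 218 CPM in Control. Apob held most of each sum but that of K-80003 replicate 2, where it held 26.7 CPM. Alb had 2.93 and 24.3 CPM in the K-80003 group, 6.55 and 5.97 CPM in the TGF-beta group and 5.57 and 7.46 CPM in Control. Of the 4 hepatocyte markers tested, 0 were called. Their median log2 fold change was 1.89 in the K-80003 group against TGF-beta alone and 1.32 against Control. As the libraries are bulk samples, fewer cells of a type and less RNA per cell cannot be told apart in any result below.

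Per transcript length, Itgb1 was the most abundant member in each group, with 582 ± 4.02 FPKM in the K-80003 group, 643 ± 26.9 FPKM in the TGF-beta group and 527 ± 15.5 FPKM in Control (SD, n = 2). FPKM, the authors' count scaled by exonic length and library total, is the scale on which levels of different genes can be compared. By its mean FPKM, Itgb1 ranked 39 among all genes of the table in the K-80003 group, 35 in the TGF-beta group and 42 in Control, so its message was among the most abundant in these cells. Itgb5 followed in each group, at rank 231 in the K-80003 group, 84 in the TGF-beta group and 345 in Control. Between about 10 and 60 FPKM came Itga5, Itgav, Itgb3 and Itga1, in an order that differed by group. In the K-80003 group Itga5 (46.3 to 48.7 FPKM) and Itgav (42.4 to 49.95 FPKM) overlapped each other and stood above Itgb3 (28.6 to 32.0 FPKM) and Itga1 (9.21 to 11.9 FPKM). In the TGF-beta group Itga1 (40.5 to 60.2 FPKM) and Itgav (41.6 to 49.2 FPKM) overlapped and stood above Itga5 (36.2 to 37.9 FPKM) and Itgb3 (16.5 to 18.9 FPKM). In Control Itga1 (36.6 to 61.8 FPKM) overlapped Itgav (26.7 to 42.2 FPKM), and Itgb3 (20.6 to 22.9 FPKM) overlapped Itga5 (19.3 to 23.8 FPKM). Itga8 came next in every group, and Itga11, Itga4 and Itgb8 stayed under 1 FPKM in all 6 libraries. Itga11, described as a collagen receptor of fibroblasts, overlapped Itga4 in the TGF-beta and Control groups.

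**Figure D2:**
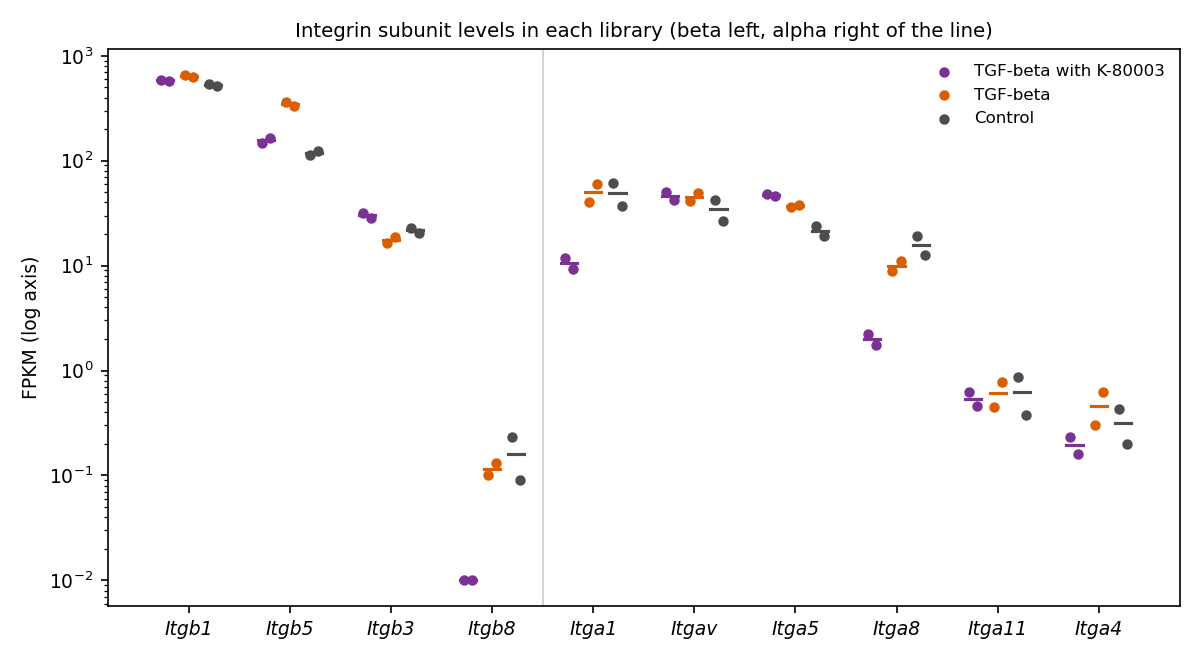
FPKM of each member (log axis) in each library, with the K-80003 group left, the TGF-beta group in the middle and Control right at each gene; points are libraries and short lines the group means. Itgb1 and Itgb5 lead in every group, Itgb5 stands apart in the TGF-beta group, and Itga1, Itga8 and Itgb8 are lowest in the K-80003 group.

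The make-up of the pool of the 6 alpha members' messages differed by group. Alpha subunits that are not members lie outside this pool. Of these, Itga9 had a mean of 37.8 FPKM in the K-80003 group, 87.7 FPKM in the TGF-beta group and 64.2 FPKM in Control. In the TGF-beta and Control groups that mean was above the mean of each alpha member. Within a library, each gene's share of the summed FPKM of the 6 alpha members does not depend on how libraries are scaled. Itga1 made up 9.18% and 10.5% in the 2 libraries of the K-80003 group, 31.7% and 37.7% in those of the TGF-beta group and 38.2% and 41.7% in Control. Itga5 made up 42.8% and 46.2% in the K-80003 group, 23.7% and 28.3% in the TGF-beta group and 16.1% and 20.1% in Control, so the fibronectin-binding subunit held its largest share where Itga1 held its smallest. Itgav made up 42.3% and 44% in the K-80003 group, 30.8% and 32.5% in the TGF-beta group and 27.8% and 28.5% in Control. Itga8 made up 1.74% and 1.96% in the K-80003 group, 6.90% in both libraries of the TGF-beta group and 12.8% and 13.3% in Control. Itga11 and Itga4 together stayed under 1% in every library. In the pool of the 4 beta members, Itgb5 made up 19.4% and 21.4% in the K-80003 group, 34.3% and 34.6% in the TGF-beta group and 16.8% and 18.8% in Control. Itgb1 made up 74.9% and 76.4% in the K-80003 group, 63.8% in both libraries of the TGF-beta group and 78% and 79.7% in Control. Itgb3 made up 3.7% and 4.18% in the K-80003 group, 1.59% and 1.93% in the TGF-beta group and 3.11% and 3.39% in Control. With 2 libraries against 2, an exact two-sided permutation test cannot give a p below 0.333, so the shares are given as a description; a share can also fall because another subunit of the pool is higher.

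**Figure D3:**
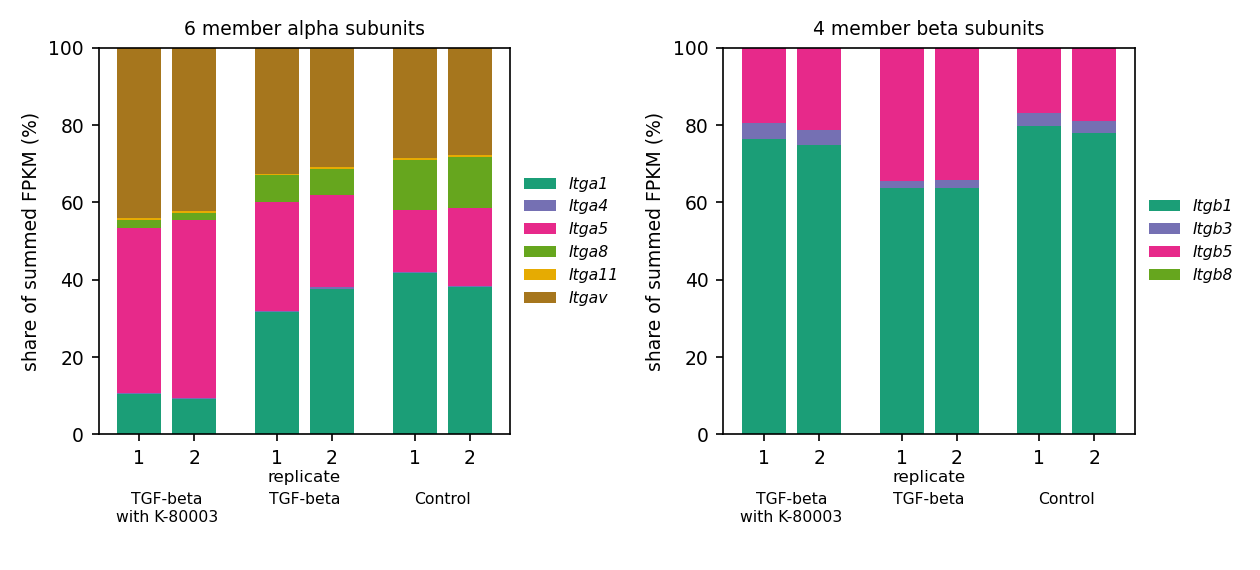
Share of each subunit in the summed FPKM of the 6 alpha members (left) and the 4 beta members (right), in percent, for replicates 1 and 2 of the K-80003 group, the TGF-beta group and Control. Itga1 takes 9.18% to 10.5% of the alpha pool in the K-80003 group, against 31.7% or more in the other 4 libraries, and Itgb5 takes over 34% of the beta pool in the TGF-beta group, against 21.4% or less elsewhere.

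The 3 pairs of groups were compared by the quasi-likelihood test of edgeR over all 15987 genes. A gene was called where its p, adjusted by the method of Benjamini and Hochberg, was under 0.05. Against TGF-beta alone, 4 of the 10 members were called in the K-80003 group, all lower: Itga1, Itga8, Itgb5 and Itgb8. In this comparison 10.1% of all genes tested were called, 7.32% of all genes lower and 2.78% higher. With TGF-beta alone against Control, 2 members were called, Itgb5 and Itga5, both higher, where 2.94% of all genes were called, 1.06% higher and 1.88% lower. In the K-80003 group against Control, Itga1, Itga8 and Itgb8 were called lower and Itga5 was called higher, where 17.3% of all genes were called (11.7% lower and 5.54% higher). At a minimum count of 50, where Itgb8 was not tested, 3 members were called in each comparison with the K-80003 group. Each pair of these comparisons shares a group of libraries, so their values are given side by side. The members' median log2 fold change was -0.77 in the K-80003 group against TGF-beta alone, 0.28 in TGF-beta against Control and -0.02 in the K-80003 group against Control, beside medians of 0.01, 0.01 and 0.02 over all genes tested. The libraries of the K-80003 group did not overlap those with TGF-beta alone for 8 of the 10 members, 2 higher and 6 lower, and for 51.4% of all genes (24.5% higher and 26.8% lower). Between TGF-beta alone and Control this held for 5 members, 4 higher and 1 lower, and for 38.4% of all genes (18.5% higher and 19.8% lower). Between the K-80003 group and Control it held for 7 members, 4 higher and 3 lower, and for 55.5% of all genes (27.4% higher and 28.1% lower).

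**Figure D4:**
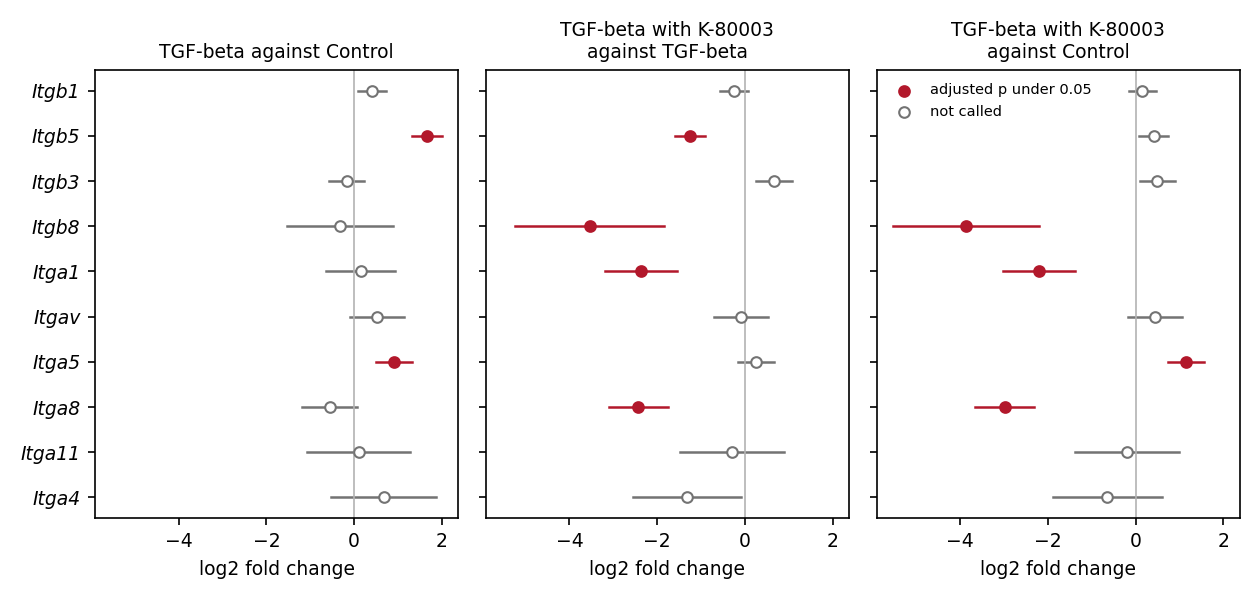
Fitted log2 fold change of each member with its 95% interval in TGF-beta against Control, the K-80003 group against TGF-beta alone and the K-80003 group against Control; filled red points have an adjusted p under 0.05 in edgeR's quasi-likelihood test. Itgb5 lies at 1.66 in the first panel and -1.25 in the second, and Itga1, Itga8 and Itgb8 lie below -2 in both panels with K-80003.

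Among the collagen receptors, Itga1 (ENSMUSG00000042284, chr13:115089632-115238500), whose pair with Itgb1 favours basement membrane collagen, had 219.6 and 165 CPM in the K-80003 group, 780.0 and 1201 CPM in the TGF-beta group and 1125 and 653 CPM in Control. Both libraries of the K-80003 group lay far below the other 4, while the TGF-beta and Control libraries overlapped. Itga1 fell in the K-80003 group against TGF-beta alone (log2 fold change -2.37, SE 0.34, adjusted p = 0.00867 in edgeR's quasi-likelihood test), which is 0.194 times the TGF-beta level. It also fell against Control (log2 fold change -2.21, SE 0.34, adjusted p = 0.00749 in the same test). The adjusted p was above 0.05 when K-80003 replicate 2 was left out, at 0.0739 against TGF-beta alone and 0.0606 against Control. Between TGF-beta and Control its log2 fold change was 0.16 (95% interval -0.63 to 0.94). Pelo, a gene counted on the same strand within the Itga1 locus, had 18.5 to 35.8 CPM over the 6 libraries. Itga11 (ENSMUSG00000032243, chr9:62585108-62691264), the receptor subunit for fibrillar collagen, had 3.14 and 2.28 CPM in the K-80003 group, 2.37 and 4.31 CPM in the TGF-beta group and 4.38 and 1.85 CPM in Control. The groups overlapped in all 3 comparisons, on 32 to 70 counts a library, and the intervals of its log2 fold change ran from -1.47 to 0.88 in the K-80003 group against TGF-beta alone and from -1.07 to 1.28 in TGF-beta against Control.

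Of the fibronectin receptors, Itga5 (ENSMUSG00000000555, chr15:103252713-103275190) had 239 and 220.2 CPM in the K-80003 group, 185 and 201 CPM in the TGF-beta group and 115 and 91.2 CPM in Control. The 3 groups did not overlap, with Control lowest and the K-80003 group highest. With TGF-beta alone it rose to 1.87 times the Control level (log2 fold change 0.90, SE 0.17, adjusted p = 0.0482, edgeR's quasi-likelihood test), a call close to the threshold that was lost without any one of the 6 libraries (adjusted p 0.0721 to 0.201). In the K-80003 group it rose to 2.23 times the Control level (log2 fold change 1.15, SE 0.17, adjusted p = 0.00615 in edgeR), with an adjusted p of 0.0585 when K-80003 replicate 1 was left out. The K-80003 group was not called different from TGF-beta alone (log2 fold change 0.25, 95% interval -0.15 to 0.65). The endothelial markers summed to 608 to 695 CPM in the K-80003 group, 325 to 391 CPM in the TGF-beta group and 385 to 475 CPM in Control. In the K-80003 group against Control, 3 of the 8 were called higher and 2 lower. Their median log2 fold change there was 0.02. In TGF-beta against Control, where Itga5 was also called higher, 0 of the 8 were called higher and 2 lower. The median there was -0.52. The part of these markers in the result was not tested.

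Itga8 (ENSMUSG00000026768, chr2:12111443-12306733), a subunit that marks stellate cells and other pericyte-like cells of several organs, had 16.3 and 12.4 CPM in the K-80003 group, 67.3 and 87.1 CPM in the TGF-beta group and 137 and 90.0 CPM in Control. The 3 groups did not overlap and the K-80003 libraries were lowest. Itga8 fell in the K-80003 group to 0.186 times the TGF-beta level (log2 fold change -2.43, SE 0.28, adjusted p = 0.00368, edgeR's quasi-likelihood test) and to 0.126 times the Control level (log2 fold change -2.98, SE 0.28, adjusted p = 0.00133, same test). It kept an adjusted p under 0.05 without any one of the 6 libraries in both comparisons (0.00198 to 0.0381 and 0.00127 to 0.0154). Although both TGF-beta libraries lay below both Control libraries, that difference was not called (log2 fold change -0.56, adjusted p = 0.408 in edgeR). Itga4 (ENSMUSG00000027009, chr2:79085770-79163467) was scarce, with 3.25 and 2.17 CPM in the K-80003 group, 4.29 and 9.3 CPM in the TGF-beta group and 5.82 and 2.72 CPM in Control. Its K-80003 libraries lay below both TGF-beta libraries, but the difference was not called (log2 fold change -1.32, 95% interval -2.55 to -0.09, adjusted p = 0.187 in edgeR). Itga4 was called lower there with the length trend removed (adjusted p = 0.0354) and with no filter on low counts (0.00044).

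The common beta partner Itgb1 (ENSMUSG00000025809, chr8:129412135-129459681) had 2374 and 2277 CPM in the K-80003 group, 2799 and 2732 CPM in the TGF-beta group and 2151 and 2023 CPM in Control. The groups did not overlap, with the TGF-beta libraries highest and Control lowest, yet none of the 3 differences was called. The intervals of its log2 fold change were narrow: -0.56 to 0.06 in the K-80003 group against TGF-beta alone, 0.10 to 0.72 in TGF-beta against Control and -0.15 to 0.47 in the K-80003 group against Control. Of its alpha partners among the members, Itga1 and Itga8 were called lower in the K-80003 group in both comparisons. Itga5 was called higher in the K-80003 group against Control, and Itga4, Itga11 and Itgav were called in neither comparison.

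Among the Itgav receptors, Itgav (ENSMUSG00000027087, chr2:83554741-83637260) had 534 and 439 CPM in the K-80003 group, 463 and 567 CPM in the TGF-beta group and 444 and 275 CPM in Control. The K-80003 and TGF-beta libraries overlapped, and no difference was called; the log2 fold change was -0.08 in the K-80003 group against TGF-beta alone (95% interval -0.70 to 0.54) and 0.52 in TGF-beta against Control (95% interval -0.10 to 1.14). Itgb5 (ENSMUSG00000022817, chr16:33650035-33769708), whose pair with Itgav binds vitronectin and can activate latent TGF-beta under cell contraction, had 526 and 566 CPM in the K-80003 group, 1319.8 and 1277 CPM in the TGF-beta group and 395 and 425 CPM in Control. The TGF-beta libraries stood above the other 4, and the K-80003 libraries stood above both Control libraries. Itgb5 rose with TGF-beta alone to 3.16 times the Control level (log2 fold change 1.66, SE 0.14, adjusted p = 0.00618, edgeR's quasi-likelihood test), and kept that call without any one of the 6 libraries (adjusted p 0.0228 to 0.0386). It fell in the K-80003 group to 0.42 times the level with TGF-beta alone (log2 fold change -1.25, SE 0.14, adjusted p = 0.00328, same test); the adjusted p was 0.0585 without K-80003 replicate 1 and 0.0529 without K-80003 replicate 2. Between the K-80003 group and Control its log2 fold change of 0.41 was not called (adjusted p = 0.0914 in edgeR). Itgb5 was the only member called both with TGF-beta alone against Control and in the K-80003 group against TGF-beta alone, with opposite signs; the 2 comparisons share the TGF-beta libraries.

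Itgb3 (ENSMUSG00000020689, chr11:104498826-104561302), the other vitronectin receptor subunit, had 188 and 162 CPM in the K-80003 group, 101 and 119.8 CPM in the TGF-beta group and 132 and 117 CPM in Control. The K-80003 libraries were highest, and the TGF-beta and Control libraries overlapped. The difference between the K-80003 group and TGF-beta alone narrowly missed the threshold (log2 fold change 0.67, SE 0.17, adjusted p = 0.0581, edgeR's quasi-likelihood test). The same test called it in the refit with the length trend removed (0.00706), chosen after seeing the data, as did DESeq2 (0.0164). It was also called with no filter on low counts, with both limma fits and with the crossed replicate block of the closing section. Median-of-ratios or upper-quartile scaling, a minimum count of 50, the replicate block and a fit to the 4 libraries compared did not call it. The endothelial marker sum moved with Itgb3 in that comparison, with 3 of 8 markers called higher and 1 lower, and its part was not tested; the platelet markers, which would come with Itga2b and Itgb3, summed to 3.61 to 5.68 CPM in the K-80003 group, 4.50 to 8.47 CPM in the TGF-beta group and 6.38 to 7.92 CPM in Control.

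Itgb8 (ENSMUSG00000025321, chr12:119121757-119202537), whose pair with Itgav binds latent TGF-beta on the cell surface, was the scarcest member. It had 2 and 2 counts in the K-80003 libraries, 21 and 25 in the TGF-beta libraries and 39 and 17 in Control, which came to 0.105 and 0.117 CPM in the K-80003 group, 1.19 and 1.54 CPM in the TGF-beta group and 2.44 and 0.983 CPM in Control. The K-80003 libraries lay below the other 4 and under the floor of 3 counts. Itgb8 passed the filter on low counts only through the TGF-beta and Control libraries, so its test had little to show but a low level in the K-80003 group. Summed over libraries, 4 counts stood against 46 with TGF-beta alone, a ratio of 0.0816 after scaling by library size (exact 95% interval 0.0213 to 0.223), and against 56 in Control, a ratio of 0.0657 (0.0173 to 0.178); these intervals cover counting error only. Itgb8 was called lower in both comparisons by edgeR's quasi-likelihood test (adjusted p = 0.0263 against TGF-beta alone and 0.0128 against Control). Both calls were lost without either one of the K-80003 libraries (adjusted p 0.165 and 0.147 against TGF-beta alone, 0.0879 and 0.0803 against Control), and the first was also lost without TGF-beta replicate 1 (0.0651) or replicate 2 (0.0885). Both were also lost with limma, with adjusted p of 0.339 and 0.157 on log2(FPKM + 1) and 0.159 and 0.0717 on log2(FPKM + 0.1).

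Beside the falls of Itga1, Itga8, Itgb5 and Itgb8 stand 6 genes listed as smooth muscle markers, some of which, such as Acta2, activated stellate cells also express. They summed to 979 to 1108 CPM in the K-80003 group, 4985 to 5841 CPM in the TGF-beta group and 2555 to 3168 CPM in Control. Acta2 held most of each sum. Its levels were 925 and 1059 CPM in the K-80003 group, 5492 and 4532 CPM in the TGF-beta group and 2185 and 2838 CPM in Control. All 6 were called lower in the K-80003 group in both comparisons, and Cnn1 was at 0 in K-80003 replicate 1. The smooth muscle sum and the stellate sum without Reln were lower beside these members in the K-80003 group against TGF-beta alone. Against Control both sums were lower beside Itga1, Itga8 and Itgb8, while Itgb5 was not called (log2 fold change 0.41). With TGF-beta alone the smooth muscle sum and Itgb5 stood above Control. Of the 6 smooth muscle markers, 0 were called in that comparison, and their median log2 fold change was 0.37. Acta2 itself had an adjusted p of 0.0512 in edgeR's quasi-likelihood test. Itga1 (log2 fold change 0.16), Itga8 (-0.56) and Itgb8 (-0.32) were not called there. The part of these markers in the result was not tested.

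Of the other 17 integrin subunits listed, 13 passed the filter. Against TGF-beta alone, 1 was called higher and 2 lower in the K-80003 group. In TGF-beta against Control 0 were called higher and 1 lower, and in the K-80003 group against Control 1 was called higher and 4 lower. The shares of all genes called, to be read beside the counts of this list and those below, were 10.1%, 2.94% and 17.3% in that order. Itgb6, the epithelial subunit that pairs with Itgav to activate TGF-beta, had 4.34 and 4.57 CPM in the K-80003 group, 11.5 and 11.9 CPM in the TGF-beta group and 28 and 24.6 CPM in Control. It fell in all 3 comparisons (log2 fold change -1.40 with adjusted p = 0.0042 in the K-80003 group against TGF-beta alone, -1.16 with 0.0173 in TGF-beta against Control and -2.56 with 0.000416 in the K-80003 group against Control, edgeR). The 9 cholangiocyte and mesothelial markers summed to 208 to 251 CPM in the K-80003 group and 254 to 312 CPM in the TGF-beta group. In Control the sum was 818 to 1169 CPM. Of the 7 tested, 0, 4 and 7 were called lower in the same order of comparisons and 0 higher. Their median log2 fold changes were -0.17, -1.85 and -2.05 in that order, so they moved with Itgb6 in the comparisons with Control. Upk3b was at 0 in both K-80003 libraries, and the part of these markers was not tested. Itga9, a partner of Itgb1 that binds tenascin and other ligands, had 313 and 257 CPM in the K-80003 group, 608 and 818 CPM in the TGF-beta group and 561 and 397 CPM in Control. It fell in the K-80003 group against TGF-beta alone (log2 fold change -1.32, SE 0.24, adjusted p = 0.0202, edgeR). Itga10, another collagen-binding partner of Itgb1, was scarce and rose in the K-80003 group, with 7.12 and 6.44 CPM in the K-80003 group, 3.16 and 3.33 CPM in the TGF-beta group and 3.44 and 3.7 CPM in Control (1.06 against TGF-beta alone, adjusted p = 0.0247, and 0.92 against Control, adjusted p = 0.0277, edgeR). Against Control the others called lower in the K-80003 group were Itga3 (-0.88), Itgb4 (-1.42) and the leukocyte subunit Itgb2 (-1.18). Beside Itgb2, the 10 macrophage markers summed to 29.8 to 34.3 CPM in the K-80003 group, 53.6 to 58.4 CPM in the TGF-beta group and 67.4 to 72.4 CPM in Control. Of these, 6 were tested and 3 called lower against Control, Timd4 was at 0 in both K-80003 libraries, and their part was not tested. Without K-80003 replicate 1 or replicate 2, 0 of these subunits were called against TGF-beta alone and 1, Itgb6, against Control. The call of Itgb6 with TGF-beta alone was lost without any one library. The call of Itga9 was also lost without TGF-beta replicate 2, both calls of Itga10 without either library of the group it was compared with, and those of Itga3, Itgb4 and Itgb2 without Control replicate 1. The laminin receptor subunit Itga6 was not called, with 50.6 and 41.3 CPM in the K-80003 group, 23.6 and 32.4 CPM in the TGF-beta group and 60.6 and 41.5 CPM in Control, nor was the collagen receptor subunit Itga2, with 53.7 and 34.8 CPM in the K-80003 group, 52.2 and 82.5 CPM in the TGF-beta group and 87.8 and 57.1 CPM in Control.

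Of 10 collagen ligand genes tested, 0 were called higher and 6 lower in the K-80003 group against TGF-beta alone. In TGF-beta against Control 4 were called higher and 0 lower, and 2 higher and 3 lower in the K-80003 group against Control. Col1a1, a chain of the main scar collagen, had 2319 and 2222 CPM in the K-80003 group, 4175 and 4925 CPM in the TGF-beta group and 1417 and 1456 CPM in Control. It rose with TGF-beta alone (log2 fold change 1.66, adjusted p = 0.00742, edgeR) and fell in the K-80003 group against TGF-beta alone (log2 fold change -1.0029, 0.00833). Col3a1 had 992 and 968 CPM in the K-80003 group, 6124 and 6314 CPM in the TGF-beta group and 3266 and 2859 CPM in Control. It was called lower in the K-80003 group than in both other groups. Col4a1, a basement membrane chain that the Itga1 receptor binds, had 6531 and 5586 CPM in the K-80003 group, 5856 and 7781 CPM in the TGF-beta group and 5292 and 4385 CPM in Control, and no difference was called. Without K-80003 replicate 1 or replicate 2 the count of collagen ligands called lower against TGF-beta alone was 3 or 2, and in TGF-beta against Control 3 or 4 were called higher without any one library. Col1a1 lost its call against TGF-beta alone without either K-80003 library (adjusted p over the 6 fits 0.00863 to 0.111).

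Of 13 listed genes for fibronectin and other non-collagen ligands, 12 were tested, and 0 were called higher and 3 lower in the K-80003 group against TGF-beta alone. Against Control, TGF-beta alone had 2 called higher and 1 lower, and the K-80003 group had 0 higher and 4 lower. Vcam1, the cell-surface ligand of the Itga4 receptor, had 98.9 and 106 CPM in the K-80003 group, 372 and 346 CPM in the TGF-beta group and 305 and 314 CPM in Control. It fell in the K-80003 group against TGF-beta alone (log2 fold change -1.81, SE 0.14, adjusted p = 0.00119, edgeR). Postn, a matrix protein bound by Itgav receptors, had 557 and 532 CPM in the K-80003 group, 1423 and 1555 CPM in the TGF-beta group and 734 and 633 CPM in Control. It rose with TGF-beta alone (1.12, adjusted p = 0.017, edgeR) and fell in the K-80003 group against TGF-beta alone (-1.45, 0.00259). The call with TGF-beta alone held only without Control replicate 1 among the fits that left out a library (adjusted p 0.0425 to 0.0914 over the 6 fits), and the call in the K-80003 group held in all 6. Npnt, the nephronectin that Itga8 binds, had 1.05 and 0.761 CPM in the K-80003 group, 1.36 and 2.52 CPM in the TGF-beta group and 5.63 and 3.18 CPM in Control. It was called lower in the K-80003 group than in Control (log2 fold change -2.27, SE 0.46, adjusted p = 0.0204, edgeR), a call lost without K-80003 replicate 1, K-80003 replicate 2 or Control replicate 1 (adjusted p 0.0136 to 0.123 over the 6 fits). Without K-80003 replicate 1 or replicate 2, 2 non-collagen ligands were called lower against TGF-beta alone and 3 against Control.

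For the latent TGF-beta complex on which Itgav receptors act, all 8 listed genes were tested. Against TGF-beta alone, the K-80003 group had 0 called higher and 4 lower. In TGF-beta against Control 0 were called in either direction by edgeR (3 higher and 1 lower by DESeq2), and in the K-80003 group against Control 2 were called higher and 3 lower. Tgfb2 had 14.6 and 14.5 CPM in the K-80003 group, 105 and 118 CPM in the TGF-beta group and 77.1 and 68.2 CPM in Control. It fell in the K-80003 group against TGF-beta alone (log2 fold change -2.94, SE 0.16, adjusted p = 0.000456, edgeR). Tgfb3 had 23.6 and 22.3 CPM in the K-80003 group, 127 and 144 CPM in the TGF-beta group and 206 and 207 CPM in Control. It fell as well (log2 fold change -2.56, SE 0.15, adjusted p = 0.000528, edgeR). Lrrc32, which tethers latent TGF-beta to the surface where the Itgb8 receptor can reach it, fell to 0.493 times the TGF-beta level (adjusted p = 0.0387, edgeR), and Ltbp1, which anchors the complex in the matrix, to 0.434 times (0.0124). Tgfb1 differed from these, with 164 and 173 CPM in the K-80003 group, 118 and 115 CPM in the TGF-beta group and 91.5 and 85.3 CPM in Control. It was called higher in the K-80003 group than in Control (log2 fold change 0.93, SE 0.14, adjusted p = 0.00638, edgeR). Without K-80003 replicate 1 or replicate 2, 2 genes of the complex were called lower against TGF-beta alone. The calls of Ltbp1 and Lrrc32 against TGF-beta alone and of Tgfb1 against Control were lost without either K-80003 library, and that of Lrrc32 also without TGF-beta replicate 2.

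Inside the cell, 39 genes for proteins that bind integrin tails or build focal adhesions were tested. Against TGF-beta alone, the K-80003 group had 3 called higher and 6 lower. In TGF-beta against Control 1 was called higher and 1 lower, and in the K-80003 group against Control 2 higher and 6 lower. Of all genes tested, 10.1%, 2.94% and 17.3% were called in that order. The median log2 fold change of the 39 was -0.26, 0.03 and -0.17 in that order. Nedd9, a docking protein of focal adhesions, had 101 and 84.1 CPM in the K-80003 group, 254 and 311 CPM in the TGF-beta group and 125 and 109 CPM in Control. It rose with TGF-beta alone (1.27, adjusted p = 0.0206, edgeR) and fell in the K-80003 group against TGF-beta alone (-1.61, 0.00367). Lims2, of the complex that links integrins to actin, had 24 and 26.7 CPM in the K-80003 group, 69.2 and 73.9 CPM in the TGF-beta group and 72.1 and 68 CPM in Control, and its partner Parva had 253 and 250.2 CPM in the K-80003 group, 489 and 536 CPM in the TGF-beta group and 518 and 519 CPM in Control; both were called lower in the K-80003 group than in either other group. Parvb, the paralog of Parva, went the other way in both comparisons, with 43.4 and 41.7 CPM in the K-80003 group, 24.4 and 27.2 CPM in the TGF-beta group and 24.3 and 23.3 CPM in Control (log2 fold change 0.72, adjusted p = 0.0226 against TGF-beta alone, edgeR). Fyn, a kinase that acts at integrin tails, was also called higher in the K-80003 group than in either other group, with 103 and 100.5 CPM in the K-80003 group, 58.2 and 58.4 CPM in the TGF-beta group and 42 and 43.2 CPM in Control. These counts were 0 higher and 2 lower without K-80003 replicate 1, and 0 higher and 1 lower without replicate 2, against TGF-beta alone. The calls of Fyn and Parvb against TGF-beta alone were lost without any one of the 4 libraries compared, those of Parva in both comparisons and of Parvb against Control without either K-80003 library, and that of Nedd9 against TGF-beta alone without K-80003 replicate 2.

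Of 10 listed membrane partners of integrins, 9 were tested. Against TGF-beta alone 2 were called higher and 1 lower in the K-80003 group, with 1 higher and 0 lower in TGF-beta against Control, and 3 higher and 1 lower in the K-80003 group against Control. Slc3a2, the heavy chain of amino acid transporters that also binds the tails of Itgb1 and Itgb3, had 744 and 856 CPM in the K-80003 group, 277 and 222 CPM in the TGF-beta group and 218 and 278 CPM in Control. It rose in the K-80003 group against TGF-beta alone (log2 fold change 1.68, SE 0.20, adjusted p = 0.0041, edgeR). Plaur, the urokinase receptor that associates with integrins, had 91.3 and 99.2 CPM in the K-80003 group, 37.2 and 30.1 CPM in the TGF-beta group and 35.9 and 46.5 CPM in Control. It rose too (log2 fold change 1.501, adjusted p = 0.00561, edgeR). Sdc4, the syndecan that works with the Itga5 receptor on fibronectin, had 59 and 65.9 CPM in the K-80003 group, 167 and 137 CPM in the TGF-beta group and 131 and 169 CPM in Control. It fell (-1.28, adjusted p = 0.0097, edgeR), a call lost without K-80003 replicate 1, K-80003 replicate 2 or TGF-beta replicate 1 (adjusted p 0.00806 to 0.105 over the 6 fits). The call of Plaur was lost without K-80003 replicate 2. Of the membrane partners, 2 were called higher and 0 lower against TGF-beta alone without K-80003 replicate 1, and 1 and 0 without replicate 2. Cav1 rose with TGF-beta alone (1.00, 0.0269), with 24.5 and 22.4 CPM in the K-80003 group, 19.5 and 19.5 CPM in the TGF-beta group and 9.2 and 10.3 CPM in Control. Its call in TGF-beta against Control, and that of Nedd9, were lost without any one of the 6 libraries. Without K-80003 replicate 1, the K-80003 group against Control had 0 collagen ligands called higher and 3 lower, 0 genes of the latent complex higher and 2 lower, 1 adaptor higher and 1 lower and 3 membrane partners higher and 0 lower. Without replicate 2 these counts were 0 and 3, 0 and 2, 1 and 2, and 2 and 0.

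**Figure D5:**
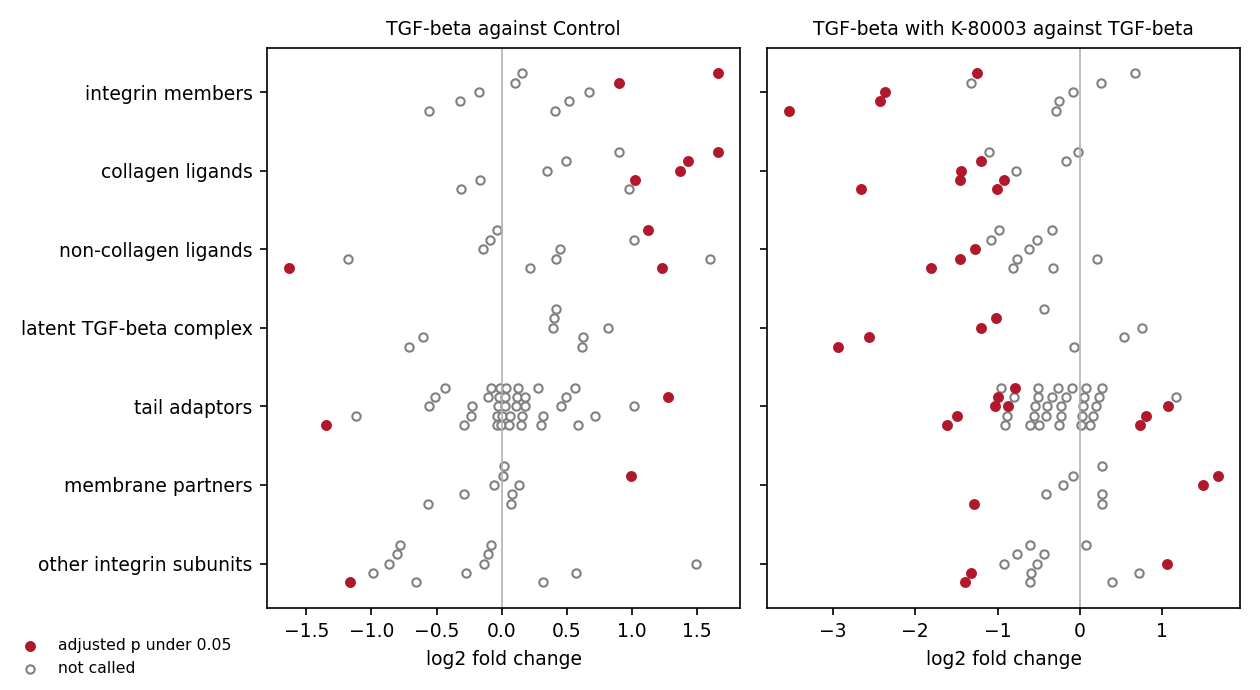
Fitted log2 fold change of every tested gene in the member list and 6 related lists, for TGF-beta against Control (left) and the K-80003 group against TGF-beta alone (right); filled red points have an adjusted p under 0.05 in edgeR's quasi-likelihood test, and vertical scatter within a list only separates the points. Called members and collagen ligands lie right of 0 on the left and left of 0 on the right, while most of the 39 tail adaptors are open points.

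For the 5 members called in any comparison, the 3 genes with the most similar pattern were found among 7741 genes, as the root mean square difference of log2 CPM over the 6 libraries after each gene was centred on its own mean. Itga1 was most like Bmp10 (0.130), Slc5a3 (0.174) and Ephb2 (0.204). Bmp10, a ligand of the BMP family, had mean levels of 127 CPM in the K-80003 group, 667 CPM in the TGF-beta group and 646 CPM in Control. Itga8 was most like Rapgef5 (0.102), Ehd3 (0.156) and Zfp970 (0.160), and Itgb8 was most like Prelp (0.183), Rapgef5 (0.217) and Itga8 itself (0.268). Itgb5 was most like Loxl2 (0.120), Loxl1 (0.130) and Col1a1 (0.153), that is, like lysyl oxidases that cross-link collagen and a collagen chain. Loxl2 had mean levels of 659.6 CPM in the K-80003 group, 1562 CPM in the TGF-beta group and 548 CPM in Control. Itga5 was most like Dact1 (0.0769), Il17ra (0.105) and Emp1 (0.117). Emp1 had mean levels of 264 CPM in the K-80003 group, 217 CPM in the TGF-beta group and 129 CPM in Control. These distances use the same 6 libraries and thus share their length trend. For Itgb8, with 2 counts in each K-80003 library, they also depend on the prior count of about 2 added before the log.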

How the data were processed

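Poly(A) RNA of 6 libraries was sequenced. The deposited table gave integer read counts per gene, not normalized by the authors, and FPKM values that the authors computed from the same counts; 100% of the FPKM values lay within 0.0051 of count over exonic length and library total. The build GRCm39 and the tools HTSeq 0.6.1, HISAT2 2.0.1, Cufflinks 2.2.1, cutadapt 1.9.1, DESeq2 and SAMtools 0.1.19 are named, per the submitters' processing notes. No source used here gives the strand setting, so reads of overlapping genes, such as those within Itga1, Itga4, Itga8 and Itgav, may be shared; the same holds for Itga9, Tgfb2, Tgfb3, Nedd9, Fyn, Lims2, Parva, Col4a1, Vcam1, Dact1, Loxl2 and Prelp, which have a gene on the opposite strand. Gene coordinates are on GRCm39; promoter sequences are RefSeq's on GRCm38.p6.

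Genes with too few counts were removed with filterByExpr (minimum count 10, minimum total 15; the genes removed held 0.13% of counts). Counts were scaled by TMM and fitted to all 6 libraries with edgeR 4.0.16 (R 4.3.3), without a replicate term, with 3 residual and 3.45 prior degrees of freedom; tests were two-sided. CPM values are TMM-scaled. Alternatives used limma 3.58.1 on log2(FPKM + 1) and log2(FPKM + 0.1), and DESeq2 1.42.0. The procedure was tested on simulated data. Libraries of 1 group differed beyond counting noise (chi-square per degree of freedom 19.9 in the K-80003 group, 45.4 in TGF-beta and 50.6 in Control), so no pair was treated as 1 library deposited more than once. Molecular identifiers are not named in the protocol; intervals and floors from counts therefore hold counting error alone.

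The members, gene lists and tests were chosen with earlier results of these data known. Named genes are all members, the other integrin subunits tested, of each related list the genes called (up to 6 a comparison by smallest p) and the 2 most abundant, and for each called member the 3 genes nearest in pattern among those whose highest group mean was 5 FPKM or more, and of each marker list the 3 most abundant. Not all of these are printed, and some listed markers are not reported here.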

Additional observations from a re-analysis of the deposited data

How the results depend on the processing

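In TGF-beta against Control, 2 members were called. Median-of-ratios scaling, a minimum count of 50, limma on log2(FPKM + 1), limma on log2(FPKM + 0.1), a fit to the 4 libraries compared and leaving out any library (1 to 1) each left 1, Itgb5. Upper-quartile scaling, DESeq2 and no filter gave 2. In the K-80003 group 4 members were called against TGF-beta alone and 1 to 4 when a library was left out; against Control, 4 and 2 to 4. Itgb8 was not tested at a minimum count of 50.

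The replicate numbers did not pair the libraries in the same way across all 3 groups. Replicate differences ran together between the K-80003 group and Control, with a correlation of 0.504. They ran opposite in the TGF-beta group, at -0.476 with the K-80003 group and -0.636 with Control. Whether a shared pairing or the length trend underlies these signs was not tested. The replicate block left 0 members called in TGF-beta against Control (Itgb5 at adjusted p = 0.0506), 3 in the K-80003 group against TGF-beta alone (Itgb8 at 0.0658) and 4 against Control. With TGF-beta alone against Control it left 0 genes of each of the 6 related lists called, the 4 collagen ligands included. For the K-80003 group against Control it left 0 collagen ligands called higher (2 without it), 1 higher and 2 lower in the latent complex, and 0 higher and 1 lower of the other subunits. Against TGF-beta alone it left 0 higher and 1 lower of the other subunits, 0 and 2 of the latent complex and 0 and 3 of the adaptors. Over all genes the block called 40 with TGF-beta alone against Control, 792 in the K-80003 group against TGF-beta alone and 1564 in the K-80003 group against Control (the order of the counts that follow), against 470, 1616 and 2758 without it. DESeq2 called 846 and the fit to 4 libraries 199 in TGF-beta against Control; no filter gave 1143, 2492 and 3475, and leaving out a library 89 to 218, 451 to 1661 and 996 to 2397. A crossed replicate block, with the TGF-beta numbers exchanged, was added after seeing the data and called 6, 8 and 8 members and 3708, 5902 and 7352 genes.

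Removing a per-library trend on exonic length, also added after seeing the data, gave 2, 6 and 7 members called and 933, 2460 and 4341 genes. In the K-80003 group against Control it put the median log2 fold change of all genes at 0.16 and the share of calls that were higher at 53.0%, against 32.1% without it; that share was 41.7% against 27.5% in the K-80003 group against TGF-beta alone and 48.1% against 36.2% in TGF-beta against Control. Against TGF-beta alone it gave -2.31 for Itga1, -2.37 for Itga8, -1.14 for Itgb5 and -3.48 for Itgb8.

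No called difference of a member changed sign. Log2 fold changes of subunits in comparisons where they were not called did, over the fits without 1 library: in the K-80003 group against TGF-beta alone Itga11 -0.66 to 0.15, Itga2b -0.0900 to 0.22, Itgal -2.51 to 0.15, Itgav -0.23 to 0.0472, Itgb4 -0.80 to 0.00884. In TGF-beta against Control Itga1 -0.19 to 0.60, Itga11 -0.40 to 0.85, Itga2 -0.45 to 0.24, Itga7 -0.47 to 0.22, Itgb7 -0.30 to 1.47, Itgb8 -0.85 to 0.47. In the K-80003 group against Control Itga11 -0.71 to 0.55, Itga6 -0.42 to 0.14, Itgal -1.01 to 1.65, Itgb7 -1.06 to 0.68. Itgav against TGF-beta alone was 0.0239 with limma on log2(FPKM + 1) and 0.0243 on log2(FPKM + 0.1). The cause of these shifts was not tested. Depth limits Itgb8 in the K-80003 group, with 2 counts in each library.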
